A study of Rattus norvegicus with 9 samples.

Results

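The genes described here are 45 genes of protein folding in the endoplasmic reticulum (ER) and of the unfolded protein response. They were chosen by name and sorted into 7 roles, and the probes of the array were assigned to them through the transcript accession of each probe. Of the 45 genes, 40 had a matched probe among the 15163 gene symbols on the array. Manf, Edem1, Derl2, Sec24d and Sec23b had no matched probe and were not analysed here. The signals of 39 of the 40 genes were well above background on all 9 arrays, and Ern1 was well above background on 6 arrays.

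Prostates of male Sprague Dawley rats (6 weeks old at purchase) were compared in 3 groups of 3 arrays each. Sham rats had a sham operation and received subcutaneous corn oil and oral water. BPH rats were castrated and received subcutaneous dihydrotestosterone, an androgen, at 3 mg/kg daily over 4 weeks, with water by mouth. BPH+ghrelin rats were castrated and received the same dihydrotestosterone, and in addition ghrelin by gavage at 20 nmol/kg daily during the last 2 weeks. Ghrelin is a peptide hormone that acts on the growth hormone secretagogue receptor. Castration and dihydrotestosterone were thus common to both BPH groups, and a legend of the study gives another dose and route of ghrelin than its methods. Which rats were used for the arrays is not given in the sources used here, and p-values measure only the spread between these samples. RNA was from whole prostate tissue. The difference between BPH and sham addresses castration with androgen replacement, that between BPH+ghrelin and BPH addresses the addition of ghrelin, and that between BPH+ghrelin and sham addresses both together.

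Secreted and membrane proteins fold in the lumen of the ER, where chaperones bind them, oxidases and disulfide isomerases join their cysteines, and ER-associated degradation removes what does not fold. When unfolded protein accumulates, the sensors IRE1 (Ern1), PERK (Eif2ak3) and ATF6 (Atf6) are activated. IRE1 splices the mRNA of Xbp1, ATF6 is cut and becomes a transcription factor, and PERK phosphorylates a translation initiation factor, which lowers protein synthesis but favours translation of Atf4 and induction of Ddit3 (CHOP). The secretory epithelium of the prostate exports large amounts of protein and depends on this machinery. Splicing, cleavage and phosphorylation are not measured by the arrays, which measure mRNA.

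Values are log2 signals after quantile normalization over the 9 arrays, listed in the order replicate 1, 2 and 3, where the number names an array and gives no order. Differences are between group means on this log2 scale and are given ± SE of the limma fit. The fit uses a spread estimate shared by the 3 groups, so SE and p-values of a comparison also reflect the spread of the group outside it. Sham replicate 2 was the dimmest array, with a median raw signal of 40.9 (73.3 to 133 on the other arrays) and 61.4% of probes well above background (69.5% to 75.05% on the others). Sham replicate 2 was the lowest sham array for 25 of 39 genes of the ER set (all genes, 44.1%). One array of every group had intermediate values for most genes. This was sham replicate 3 for 87.2% of the ER genes (78.6% of 9692 named genes well above background on all arrays), BPH replicate 2 for 89.7% (77.5%) and BPH+ghrelin replicate 2 for 82.1% (74.6%). Equal shares for the 3 arrays of a group would be expected only if genes varied independently of each other. The origin of these shares was not tested. Legends of the study describe the arrays of both BPH groups as from separate rats, and all SE and p-values take the 3 arrays of a group as independent. The part of these arrays in the results was not tested, and values without them are given where they matter. The prostate markers Pbsn and Sbp were well above background on all 9 arrays.

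Upstream sequences of the genes were compared first, because the ER stress response element (ERSE) and its variant ERSE-II are bound by ATF6 and XBP1 with the factor NF-Y. RefSeq (GRCr8) windows from 250 bases before to 50 bases after the start were at hand for 37 of 45 genes. Both strands were searched for the ERSE (CCAAT, 9 bases of any kind, CCACG), the ERSE-II (ATTGG, 1 base of any kind, CCACG), the core of the unfolded protein response element (TGACGTG), the C/EBP-ATF element (TGATGCAAT) and CCACG alone, which is part of the ERSE and of the ERSE-II. The ERSE was found in 7 of 37 windows (18.9%; Xbp1, Hspa5, Hsp90b1, Dnajc3, Creld2, Ero1b and Derl3) and in 0.0765% of all 27457 windows. The ERSE-II was found in 3 windows (8.11%; all windows, 0.0546%), those of Hyou1, Dnajb11 and Herpud1. TGACGTG was found in 2 windows (5.41%; all windows, 1.88%), those of Hspa5 and Hyou1, where it overlaps an ERSE-II in the window of Hyou1. TGATGCAAT was found in 0 windows (all windows, 0.193%), and CCACG in 27 (73%; all windows, 32.5%). A match describes letters and not a bound site.
The stretch before the start of Hspa5 (chr3:38452866-38453015, plus strand) is shown because it holds both TGACGTG and an ERSE; the capitals mark the fixed letters of these elements here and in the lines that follow.
Hspa5: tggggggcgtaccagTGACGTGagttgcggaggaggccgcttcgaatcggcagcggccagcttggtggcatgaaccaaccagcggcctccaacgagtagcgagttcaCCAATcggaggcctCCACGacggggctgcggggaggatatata
The ERSE of Xbp1 (chr14:84604538-84604596, plus strand), Dnajc3 (chr15:102432514-102432572, plus strand), Creld2 (chr7:121789219-121789277, plus strand), Ero1b (chr17:92941438-92941496, plus strand) and Derl3 (chr20:12766581-12766639, minus strand) is shown with its flanks, since the signals of these genes are compared below. Lines run 5′ to 3′ along the gene, so that in Creld2, Ero1b and Derl3, where the element lies on the opposite strand, the capitals read CGTGG first.
Xbp1: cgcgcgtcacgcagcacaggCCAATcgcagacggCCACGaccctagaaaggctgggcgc
Dnajc3: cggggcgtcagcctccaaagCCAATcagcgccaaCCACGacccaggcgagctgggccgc
Creld2: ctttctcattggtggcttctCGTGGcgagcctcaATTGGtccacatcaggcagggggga
Ero1b: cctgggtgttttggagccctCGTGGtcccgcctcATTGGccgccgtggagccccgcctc
Derl3: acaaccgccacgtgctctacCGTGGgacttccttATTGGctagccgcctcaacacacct
The ERSE-II of Herpud1 (chr19:10614801-10614851, minus strand) has ATTGG, the reverse complement of CCAAT, and CCACG with a single base between them.
Herpud1: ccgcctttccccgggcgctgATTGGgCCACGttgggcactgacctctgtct
The bases before the start of Agr2 (chr6:58435808-58435907, plus strand) are shown for contrast, since the Agr2 window holds none of these motifs and has a GC content upstream of the start of 39.2% (median of the ER genes, 61.2%; of all windows, 52%).
Agr2: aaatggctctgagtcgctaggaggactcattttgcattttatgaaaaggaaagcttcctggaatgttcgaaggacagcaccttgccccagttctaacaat

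In BPH compared with sham, 2 of 40 ER genes fell and 38 did not pass the test. Those that fell were the disulfide isomerase family member Agr2 and the transcription factor Creb3l1. In RNA of whole tissue, fewer cells of a type and less RNA per cell cannot be told apart. The share of all 19552 genes that passed an adjusted p of 0.05 was 4.34% (2.16% higher and 2.18% lower), and 26.5% had an unadjusted p under 0.05, compared with 8 of the 40 ER genes (P4hb, Ero1b, Ero1a and Dnajc3 higher; Agr2, Creb3l1, Derl3 and Ddit3 lower). Differences reached 2-fold for 1 ER gene, which was lower (all genes, 3.53% higher and 4.63% lower). BPH and sham arrays were fully separated for 1 ER gene that was higher and 4 that were lower (all genes, 17.1% and 14.2%). Mean levels were higher in BPH for 27 of 40 ER genes (all genes, 53.7%), with a median difference of 0.15 (all genes, 0.04). With scaling of each array to its 75th percentile instead of quantile normalization, the median of all genes moved to −0.09 and that of the ER genes to −0.03, so that relative to all genes the ER median was 0.11 with the first and 0.05 with the second. The same change moved the share of higher genes among all calls from 49.7% to 32.0%.

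In BPH+ghrelin compared with BPH, 0 of 40 ER genes passed the adjusted threshold in limma (all 19749 genes, 1.48%, with 0.496% higher and 0.987% lower), and 3 had an unadjusted p under 0.05, Derl3, Ddit3 and Creb3l4 (all genes, 21.1%). The smallest adjusted p was that of Creb3l4, 0.0854. None of the ER genes differed by 2-fold (all genes, 2.9% higher and 3.21% lower). The arrays did not overlap for 3 ER genes that were higher in BPH+ghrelin and 3 that were lower (all genes, 19.8% and 19.3%). Mean levels were higher in BPH+ghrelin for 25 ER genes (all genes, 51.7%), with a median difference of 0.11 (all genes, 0.02). With 75th percentile scaling, the median was 0.26 (all genes, 0.10). Cell type markers differed as well, with lower means in BPH+ghrelin for 7 of 7 smooth muscle markers (median −0.55, 1 passed), 8 of 9 macrophage markers (median −0.54, 2 passed) and 6 of 7 fibroblast markers (median −0.32, 1 passed). Secretory prostate epithelium had lower means for 8 of 11 markers (median −0.11, 1 passed and was higher). The seminal vesicle and coagulating gland list had lower means for 4 of 6 (median −0.53, 0 passed). The part of these cells and tissues was not tested. The quantile normalized ER median became −0.04 without BPH replicate 1 and −0.0047 without BPH+ghrelin replicate 1. With the 6 arrays of these groups alone in the normalization and fit, Creb3l4, Ddit3 and Xbp1 passed (adjusted p of 0.0260, 0.0382 and 0.0405), in a fit in which 2106 genes of all passed, compared with 293 with the 9 arrays. Within the first scan, which held the BPH arrays and BPH+ghrelin replicate 1, Creb3l4 differed by −0.74 and Ddit3 by 0.77, values that rest on a single BPH+ghrelin array. Of all calls, 33.4% were higher, and 47.4% with 75th percentile scaling.

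In BPH+ghrelin compared with sham, the same 2 genes, Agr2 and Creb3l1, were lower at an adjusted p under 0.05 (all 19197 genes, 6.29%, with 2.99% higher and 3.3% lower), and 8 ER genes had an unadjusted p under 0.05 (all genes, 23.7%). Besides the 2, these were Creld2, Ero1b, Ero1a and Sec61b, which were higher, and Creb3l2 and Creb3l4, which were lower. Agr2 was lower and Creld2 higher by at least 2-fold (all genes, 4.2% and 3.21%). The arrays did not overlap for 15 of 40 ER genes, 12 of them higher in BPH+ghrelin (all genes, 17.5%) and 3 lower (all genes, 12.8%). The 12 were Creld2, Sdf2l1, Hspa5, Hsp90b1, Dnajc3, Ero1a, Ero1b, Pdia6, Fkbp11, Sel1l, Ssr2 and Sec61b, none of which passed the adjusted threshold. The spread of the BPH arrays enters this test. Hspa5, for example, had an SD of 0.05 in sham, 0.06 in BPH+ghrelin and 0.53 in BPH, and an SE of 0.24. Mean levels were higher for 28 ER genes (all genes, 54.4%), with a median difference of 0.31 (all genes, 0.04). In the same comparison, means were lower for 7 of 7 smooth muscle markers (median −0.37, 1 passed) and 7 of 9 macrophage markers (median −0.53, 0 passed, 4 with an unadjusted p under 0.05) and higher for 3 of 5 basal epithelium markers (1 passed). Secretory prostate epithelium had lower means for 7 of 11 markers (median −0.14, 4 passed lower and 1 higher). The seminal vesicle and coagulating gland list had lower means for 5 of 7 (median −4.80, 4 passed). The part of these cells and tissues was not tested. Both comparisons with sham use the same sham arrays, and both comparisons with BPH the same BPH arrays.

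**Figure D1:**
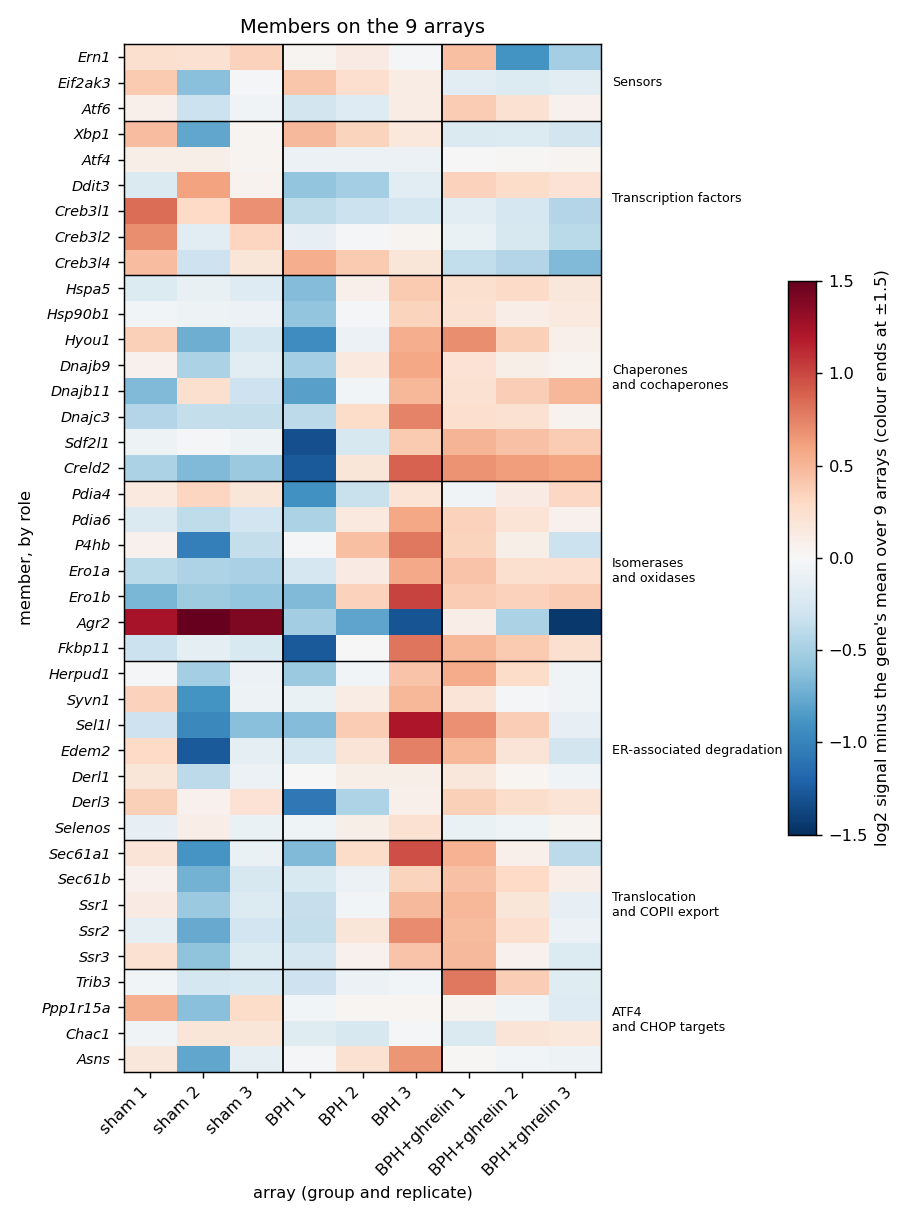
Log2 signal of the 40 measured genes (rows, grouped by role) on the 9 arrays (columns), as the difference from the mean of the gene over the 9 arrays; colours end at ±1.5. Most chaperones, oxidases and translocation genes are low on BPH replicate 1 and high on BPH replicate 3, while Agr2 and Creb3l1 are high on the 3 sham arrays.

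**Figure D2:**
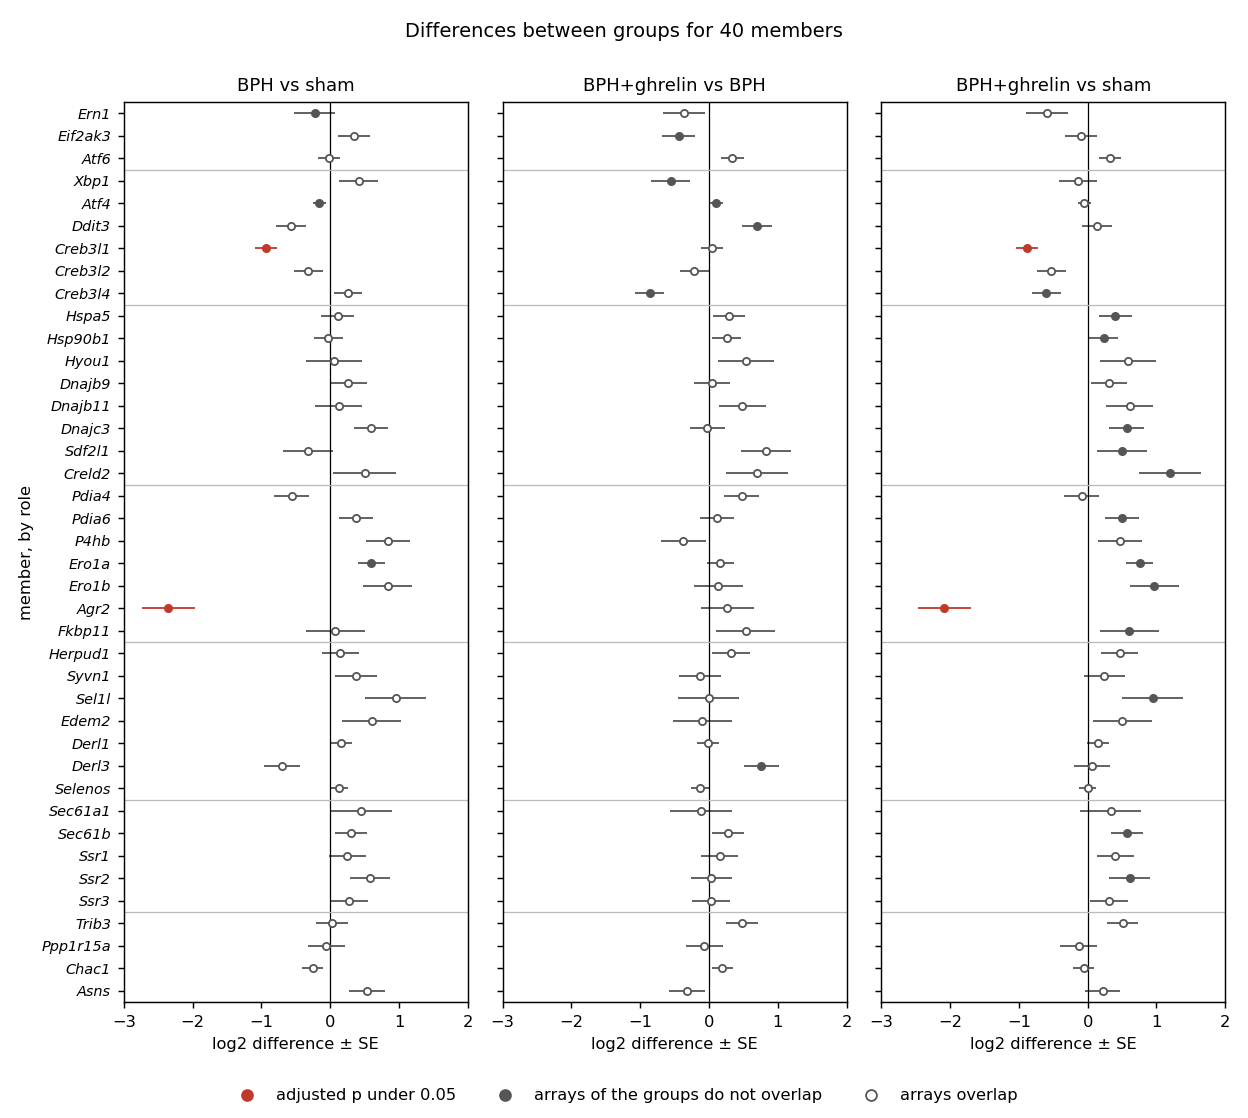
Log2 difference of group means ± SE for each of the 40 genes in the 3 comparisons, with 3 arrays in each group; red marks an adjusted p under 0.05, filled points mark genes whose arrays do not overlap between the groups and open points those whose arrays overlap. Agr2 and Creb3l1 are red in both comparisons with sham, and no gene is red in BPH+ghrelin against BPH.

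The sensors did not pass the test in any comparison of all arrays. Eif2ak3, the kinase PERK, read 12.18, 11.15 and 11.76 in sham, 12.20, 12.03 and 11.89 in BPH, and 11.60, 11.57 and 11.62 in BPH+ghrelin. The 3 BPH+ghrelin arrays spanned less than the others and lay below the 3 BPH arrays, with a difference of −0.44 ± 0.24 (adjusted p = 0.324), while the difference was 0.35 ± 0.24 (adjusted p = 0.374) for BPH against sham and −0.10 ± 0.24 (adjusted p = 0.849) for BPH+ghrelin against sham. Without 1 array, the Eif2ak3 difference between BPH and sham was 0.07 to 0.59. Atf6, which is cut under ER stress to give a transcription factor, read 8.92, 8.53 and 8.79 in sham, 8.57, 8.65 and 8.96 in BPH, and 9.22, 9.07 and 8.91 in BPH+ghrelin. Its differences were −0.02 ± 0.16 (adjusted p = 0.945) for BPH against sham, 0.34 ± 0.16 (adjusted p = 0.271) for BPH+ghrelin against BPH and 0.32 ± 0.16 (adjusted p = 0.274) for BPH+ghrelin against sham. A second Atf6 probe did not share this pattern, and its difference between BPH+ghrelin and BPH was −0.29. Ern1, the kinase and ribonuclease IRE1, was dim and read 3.80, 3.79 and 3.90 in sham, 3.59, 3.68 and 3.53 in BPH, and 4.01, 2.66 and 3.05 in BPH+ghrelin. It was well above background on 2 of 3 sham arrays, 3 of 3 BPH arrays and 1 of 3 BPH+ghrelin arrays. The differences of Ern1 were −0.23 ± 0.30 (adjusted p = 0.646) for BPH against sham, −0.36 ± 0.30 (adjusted p = 0.512) for BPH+ghrelin against BPH and −0.59 ± 0.30 (adjusted p = 0.275) for BPH+ghrelin against sham. With normexp, they were −0.01, −0.0052 and −0.02, and without BPH+ghrelin replicate 1, the last was −0.999 (adjusted p = 0.0279). These values lie near background and give no measure of a change.

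Among the 6 transcription factors, Creb3l1 fell. Creb3l1 (OASIS) is a membrane-bound factor of the ATF6 kind that is known for collagen-secreting cells. Fibroblast markers had higher means than sham in BPH for 7 of 7 genes (median 0.37; 0 passed in limma and 0 had an unadjusted p under 0.05) and in BPH+ghrelin for 5 of 7 (median 0.29; 1 passed and was lower). The part of these cells in the Creb3l1 values was not tested. Creb3l1 signals were 9.85, 9.32 and 9.70 in sham, 8.63, 8.69 and 8.75 in BPH, and 8.86, 8.77 and 8.57 in BPH+ghrelin. All sham arrays were higher than all arrays of the other groups, whose values overlapped. The mean was 9.62 ± 0.28 (SD, n = 3) in sham, 8.69 ± 0.06 in BPH and 8.73 ± 0.15 in BPH+ghrelin. The fall was 1.90-fold in BPH (−0.93 ± 0.16, adjusted p = 0.023) and 1.85-fold in BPH+ghrelin (−0.89 ± 0.16, adjusted p = 0.0207) against sham, and the difference between both BPH groups was 0.04 ± 0.16 (adjusted p = 0.905). Leaving out 1 array at a time kept the BPH against sham difference between −1.07 and −0.82, with an adjusted p under 0.05 in 2 of 6 fits (0.00677 to 0.118; not without sham replicate 3 or any 1 of the BPH arrays). For BPH+ghrelin against sham, the difference remained between −1.03 and −0.78, and 2 of 6 fits passed (adjusted p of 0.00575 to 0.0940; not without sham replicate 3 or any 1 of the BPH+ghrelin arrays). With the 6 arrays of each comparison alone, Creb3l1 had an adjusted p of 0.0821 in BPH and 0.0537 in BPH+ghrelin against sham, so that the call was lost in both.

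Creb3l4, a factor of the same family that is known in prostate epithelium, read 6.99, 6.22 and 6.71 in sham, 7.07, 6.92 and 6.70 in BPH, and 6.16, 6.09 and 5.87 in BPH+ghrelin. All BPH+ghrelin arrays were below all arrays of the other groups. The difference was −0.86 ± 0.21 (adjusted p = 0.0854) against BPH and −0.60 ± 0.21 (adjusted p = 0.127) against sham, and 0.26 ± 0.21 (adjusted p = 0.447) for BPH against sham. Without sham replicate 2, the difference from sham was −0.81 (adjusted p = 0.0273). Over the 6 fits without 1 array, it was −0.81 to −0.43, and 1 of 6 passed (adjusted p up to 0.294). Creb3l2 read 11.01, 10.14 and 10.64 in sham, 10.20, 10.29 and 10.36 in BPH, and 10.21, 10.08 and 9.92 in BPH+ghrelin. Sham replicate 2 was the lowest of the sham arrays for both factors. The Creb3l2 difference between BPH+ghrelin and sham was −0.53 ± 0.21 (adjusted p = 0.176), and −0.75 without sham replicate 2 (adjusted p = 0.0273). That fit kept sham replicate 1 (11.01), the highest array, and Creb3l2 passed in no other fit of this comparison.

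Xbp1, whose spliced mRNA encodes the factor of the IRE1 arm, read 14.29, 13.05 and 13.87 in sham, 14.31, 14.15 and 13.98 in BPH, and 13.61, 13.62 and 13.55 in BPH+ghrelin. The BPH+ghrelin arrays lay below the BPH arrays, and the sham arrays ranged from below the former to within the latter. Its difference was −0.56 ± 0.28 (adjusted p = 0.298) for BPH+ghrelin against BPH, 0.41 ± 0.28 (adjusted p = 0.369) for BPH against sham and −0.14 ± 0.28 (adjusted p = 0.803) for BPH+ghrelin against sham. With 75th percentile scaling, these were −0.12, 0.09 and −0.02. The last difference turned to 0.14 without sham replicate 1. Atf4, the factor of the PERK arm, which is regulated mainly at translation, read 14.06, 14.06 and 14.02 in sham, 13.89, 13.89 and 13.89 in BPH, and 13.97, 14.00 and 14.02 in BPH+ghrelin. The arrays of BPH did not overlap with those of the other groups, yet all 9 arrays lay within 0.18 after quantile normalization. The Atf4 differences were −0.16 ± 0.10 (adjusted p = 0.329) for BPH against sham, 0.11 ± 0.10 (adjusted p = 0.553) for BPH+ghrelin against BPH and −0.05 ± 0.10 (adjusted p = 0.806) for BPH+ghrelin against sham. With 75th percentile scaling, they were −0.53 (adjusted p = 0.113), 0.53 (adjusted p = 0.126) and −0.0013 (adjusted p = 0.997).

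Ddit3 (CHOP), a target of ATF4 linked to cell death under prolonged stress, read 10.33, 11.16 and 10.60 in sham, 9.95, 10.04 and 10.39 in BPH, and 10.90, 10.83 and 10.76 in BPH+ghrelin. The BPH+ghrelin arrays were above the BPH arrays without overlap, and sham replicate 2 was the highest array. Its difference was −0.57 ± 0.22 (adjusted p = 0.153) for BPH against sham, 0.70 ± 0.22 (adjusted p = 0.135) for BPH+ghrelin against BPH and 0.13 ± 0.22 (adjusted p = 0.761) for BPH+ghrelin against sham. Without sham replicate 1, the first of these passed with −0.76 (adjusted p = 0.0485), and the last turned to −0.05. Over the 6 fits without 1 array, the first was −0.76 to −0.34, and 1 of 6 passed (adjusted p up to 0.347). Over the 6 factors, the median difference was −0.24 for BPH against sham, −0.08 for BPH+ghrelin against BPH and −0.34 for BPH+ghrelin against sham.

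**Figure D3:**
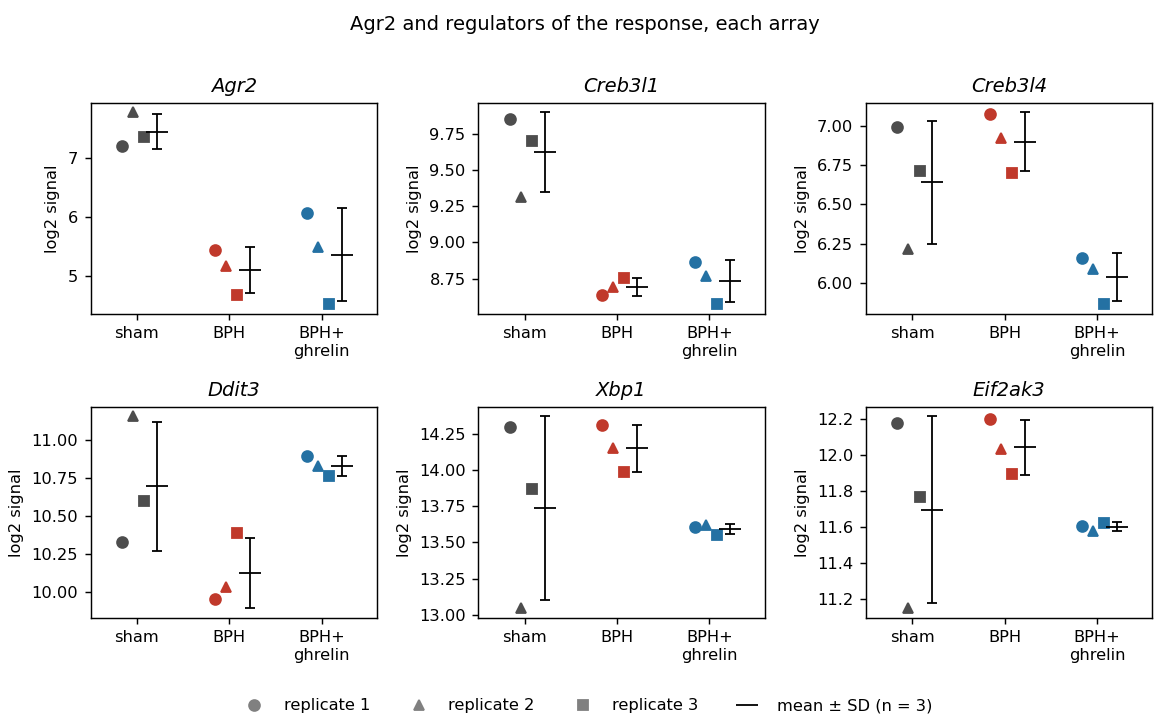
Log2 signal of Agr2, Creb3l1, Creb3l4, Ddit3, Xbp1 and Eif2ak3 on each array of the 3 groups; points are arrays labelled by replicate, and lines with bars give mean ± SD (n = 3). The sham arrays of Agr2 (7.20 to 7.77) and Creb3l1 (9.32 to 9.85) lie above all other arrays, and the BPH+ghrelin arrays of Creb3l4 (5.87 to 6.16) lie below all others.

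None of the 8 measured chaperones and cochaperones passed the test. Mean levels were higher than in sham for 8 of 8 in BPH+ghrelin (median difference 0.53, and 0.58 with 75th percentile scaling) and for 6 of 8 in BPH (median 0.12, which turned to −0.14 with 75th percentile scaling). In BPH+ghrelin compared with BPH, 7 of 8 had higher means (median 0.39), and 8 of 8 with 75th percentile scaling (median 0.75). Hspa5 (BiP), the HSP70 chaperone of the ER that also holds the sensors inactive, read 15.53, 15.63 and 15.55 in sham, 15.09, 15.81 and 16.13 in BPH, and 15.97, 16.03 and 15.91 in BPH+ghrelin. The sham arrays and the BPH+ghrelin arrays each lay close together, while the BPH arrays reached from below all others to above all others. The differences of Hspa5 were 0.11 ± 0.24 (adjusted p = 0.788) for BPH against sham, which turned to −0.47 with 75th percentile scaling and to −0.12 without BPH replicate 3, 0.29 ± 0.24 (adjusted p = 0.503) for BPH+ghrelin against BPH, which was 0.76 with 75th percentile scaling (adjusted p = 0.171), and 0.40 ± 0.24 (adjusted p = 0.348) for BPH+ghrelin against sham.

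Creld2, an ER stress-inducible protein with disulfide isomerase activity, read 11.42, 11.23 and 11.33 in sham, 10.63, 12.07 and 12.78 in BPH, and 12.57, 12.52 and 12.48 in BPH+ghrelin. All BPH+ghrelin arrays were above all sham arrays, and the BPH arrays lay below, between and above them. Creld2 signal in BPH+ghrelin exceeded that in sham 2.29-fold (1.20 ± 0.45, adjusted p = 0.156), and its mean was 0.50 ± 0.46 higher in BPH than in sham on the log2 scale (adjusted p = 0.496). With the 6 arrays of BPH+ghrelin and sham alone, the difference was 1.23 ± 0.12 (adjusted p = 0.00644), and without BPH replicate 1, that of BPH from sham was 1.11 (adjusted p = 0.0457). Creld2 passed in no other fit of BPH against sham. Without BPH replicate 3, the BPH arrays left (10.63 and 12.07) lie on either side of the sham arrays. Sdf2l1, a cochaperone in a complex with BiP, read 14.32, 14.37 and 14.32 in sham, 13.08, 14.15 and 14.79 in BPH, and 14.90, 14.83 and 14.77 in BPH+ghrelin. Its BPH+ghrelin arrays were above the sham arrays by 0.50 ± 0.36 in the mean (adjusted p = 0.453). A second Sdf2l1 probe read 12.04, 13.35 and 14.14 in BPH, compared with 13.36, 13.51 and 13.37 in sham, which is the same arrangement.

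Hsp90b1 (GRP94), the HSP90 of the ER, read 13.45, 13.42 and 13.40 in sham, 12.89, 13.48 and 13.82 in BPH, and 13.72, 13.60 and 13.64 in BPH+ghrelin. Its arrays were arranged as those of Hspa5, and the difference between BPH+ghrelin and sham was 0.23 ± 0.21 (adjusted p = 0.562). Dnajc3 (P58IPK), an ER cochaperone and PERK inhibitor, read 11.33, 11.41 and 11.41 in sham, 11.37, 12.04 and 12.51 in BPH, and 12.03, 11.995 and 11.83 in BPH+ghrelin. The BPH+ghrelin arrays did not overlap with sham (0.57 ± 0.25, adjusted p = 0.219). The difference of BPH from sham was 0.59 ± 0.25 (adjusted p = 0.184), and 0.90 without BPH replicate 1 (adjusted p = 0.0428). Dnajc3 passed in no other fit of BPH against sham. Without BPH replicate 3, 1 of the BPH arrays left (11.37) lies within the sham values and the other (12.04) above them. Hyou1, an exchange factor for BiP, read 14.16, 13.07 and 13.53 in sham, 12.86, 13.71 and 14.34 in BPH, and 14.49, 14.15 and 13.88 in BPH+ghrelin. Dnajb9 and Dnajb11, J-domain partners of BiP, were higher in BPH+ghrelin than in sham by 0.31 and 0.61 (adjusted p of 0.534 and 0.321), and the arrays overlapped for these 3 genes.

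**Figure D4:**
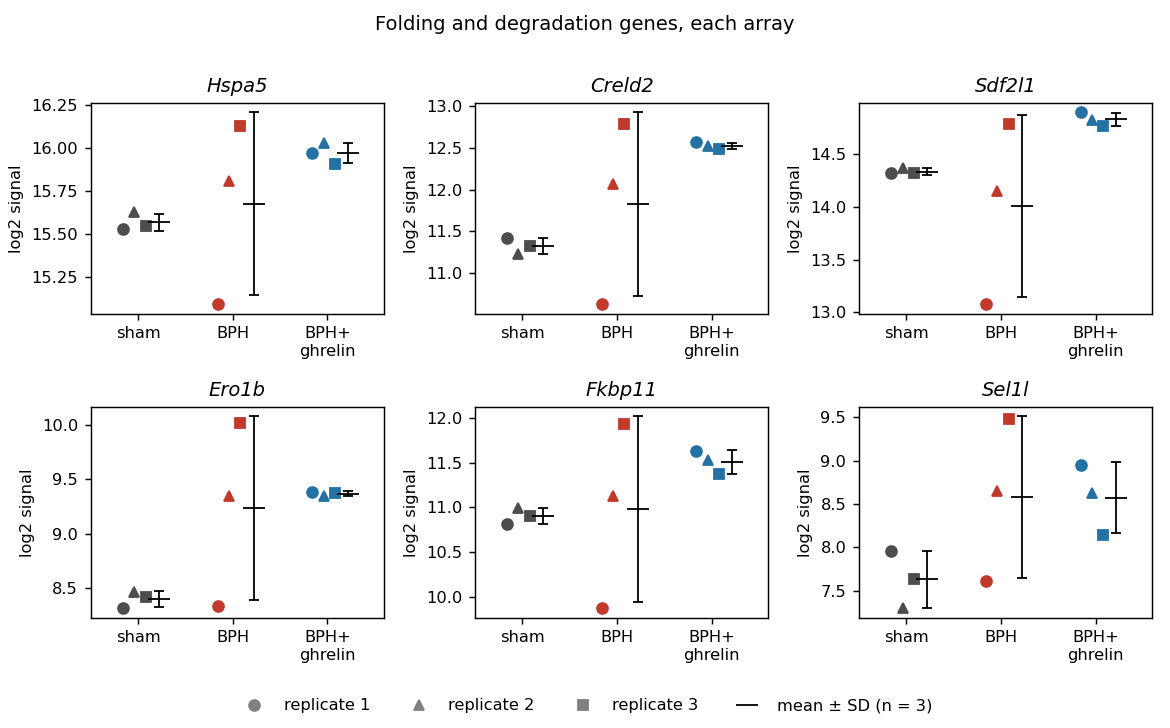
Log2 signal of Hspa5, Creld2, Sdf2l1, Ero1b, Fkbp11 and Sel1l on each array of the 3 groups; points are arrays labelled by replicate, and lines with bars give mean ± SD (n = 3). In each panel BPH replicate 1 lies low and BPH replicate 3 high, and the BPH+ghrelin arrays lie above the sham arrays.

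Agr2, a member of the disulfide isomerase family that is needed for mucin folding and is known from secretory epithelia, had the largest difference of the set. Its signals were 7.20, 7.77 and 7.36 in sham, 5.44, 5.17 and 4.67 in BPH, and 6.07, 5.49 and 4.52 in BPH+ghrelin, well above background on all 9 arrays. The 3 sham arrays were all higher than the 6 other arrays. The mean was 7.45 ± 0.29 (SD, n = 3) in sham, 5.10 ± 0.39 in BPH and 5.36 ± 0.78 in BPH+ghrelin. Agr2 fell 5.10-fold in BPH (−2.35 ± 0.38, adjusted p = 0.0195) and 4.24-fold in BPH+ghrelin (−2.09 ± 0.38, adjusted p = 0.022) against sham, and the difference between both BPH groups was 0.27 ± 0.39 (adjusted p = 0.719).

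The size of the Agr2 difference depended on the background correction, since normexp gave −1.20 for BPH and −1.07 for BPH+ghrelin against sham (adjusted p of 0.00587 and 0.00875). Leaving out 1 array at a time gave −2.51 to −2.13 for BPH, with an adjusted p under 0.05 in 3 of 6 fits (0.0204 to 0.0934; not without sham replicate 3, BPH replicate 2 or BPH replicate 3), and −2.44 to −1.66 for BPH+ghrelin, with 4 of 6 fits (0.0208 to 0.0879; not without sham replicate 3 or BPH+ghrelin replicate 2). Arrays were scanned at 3 times, and BPH and sham share no scan, so scan and group cannot be told apart in that comparison except through the BPH+ghrelin arrays. With scan as a block, Agr2 differed by −3.46 in BPH (adjusted p = 0.308) and −2.48 in BPH+ghrelin (adjusted p = 0.0898), and Creb3l1 by −1.08 (adjusted p = 0.559) and −0.91 (adjusted p = 0.187). Within the second scan, which held 2 sham and 2 BPH+ghrelin arrays, Agr2 differed by −2.48 (adjusted p = 0.344) and Creb3l1 by −0.91 (adjusted p = 0.523).

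The summed signal of seminal vesicle and coagulating gland markers was also highest in sham, most of it from Semg1 and Svs4. Of 9 such markers, 8 were matched, and the sum of their linear signals was 157795, 90492 and 146797 in sham, 28308, 15480 and 750 in BPH, and 3943, 2447 and 656 in BPH+ghrelin. Svs1 was well above background on 0 of 9 arrays, and 3 of the 8 were on all 9. Of 7 markers tested, 5 had lower means in BPH than in sham (3 passed) and 2 higher, among them Svs6, which read 4.53, 3.36 and 4.78 in sham and 6.81, 6.11 and 3.57 in BPH. The list also held Svop, which is named for synaptic vesicles and is not a secretion of these glands. Svop read 4.94, 7.68 and 6.27 in sham and 4.62, 4.94 and 4.94 in BPH. It is counted among the 5 lower markers and the 3 on all 9 arrays. The summed signal of 13 matched markers of secretory prostate epithelium was 355821 to 364594 in sham, 216848 to 249669 in BPH and 224943 to 257891 in BPH+ghrelin. In this list, 6 of 11 markers tested had higher means in BPH than in sham (median 0.03; 1 passed higher and 2 lower). Msmb, a secreted protein that contributes much of this sum, read 16.22, 15.99 and 16.11 in sham and 12.80, 11.98 and 4.79 in BPH, whereas the keratin Krt8 read 10.74, 10.38 and 10.59 in sham and 11.56, 11.53 and 11.49 in BPH. Agr2 and both sums were highest on the 3 sham arrays. Agr2 was lowest on the array with the lowest seminal vesicle sum within BPH and within BPH+ghrelin (replicate 3), but highest on that array within sham (replicate 2). Their part in the Agr2 result was not tested.

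The other 6 isomerases and oxidases did not pass the test. Including Agr2, the median difference of the 7 genes was 0.50 for BPH+ghrelin against sham (0.53 with 75th percentile scaling) and 0.38 for BPH against sham (−0.04 with 75th percentile scaling). Ero1a, which passes disulfide bonds to the isomerases, read 9.33, 9.28 and 9.25 in sham, 9.49, 9.86 and 10.31 in BPH, and 10.16, 9.98 and 9.996 in BPH+ghrelin. Its sham arrays were below all other arrays. The difference from sham was 0.59 ± 0.20 (adjusted p = 0.115) in BPH and 0.76 ± 0.20 (adjusted p = 0.0607) in BPH+ghrelin. The latter had an adjusted p of 0.0458 with 75th percentile scaling and 0.0437 with normexp. Ero1b, the second ER oxidase, known from insulin-secreting cells, read 8.31, 8.46 and 8.41 in sham, 8.33, 9.34 and 10.01 in BPH, and 9.38, 9.35 and 9.37 in BPH+ghrelin. BPH replicate 1 lay at the sham level and the other BPH arrays near or above the BPH+ghrelin arrays, whose mean was 1.96-fold above sham (0.97 ± 0.36, adjusted p = 0.143; with the 6 arrays of these groups alone, 0.99 ± 0.11, adjusted p = 0.0114). Between BPH and sham, Ero1b differed by 0.83 ± 0.36 (adjusted p = 0.183), and by 1.29 without BPH replicate 1 (adjusted p = 0.0274). It passed in no other fit of BPH against sham. Without BPH replicate 3, 1 of the BPH arrays left (8.33) lies within the sham values and the other (9.34) above them.

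Fkbp11, a proline isomerase of secretory cells, read 10.81, 10.99 and 10.91 in sham, 9.88, 11.13 and 11.93 in BPH, and 11.64, 11.53 and 11.37 in BPH+ghrelin. Its BPH+ghrelin arrays were above its sham arrays, and BPH replicates 1 and 3 lay outside both. Pdia6 read 14.94, 14.77 and 14.87 in sham, 14.68, 15.30 and 15.74 in BPH, and 15.49, 15.36 and 15.22 in BPH+ghrelin, with a difference between BPH+ghrelin and sham of 0.50 ± 0.24 (adjusted p = 0.256). P4hb, the main protein disulfide isomerase, read 14.68, 13.59 and 14.25 in sham, 14.58, 15.06 and 15.40 in BPH, and 14.94, 14.69 and 14.28 in BPH+ghrelin. The mean of P4hb was higher in BPH than in sham (0.84 ± 0.32, adjusted p = 0.152), but the arrays overlapped. Pdia4 read 9.80, 9.98 and 9.83 in sham, 8.75, 9.32 and 9.86 in BPH, and 9.61, 9.77 and 9.97 in BPH+ghrelin. It was the only gene of this role beside Agr2 with a lower mean in BPH than in sham (−0.56 ± 0.26, adjusted p = 0.205).

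None of the 7 measured genes of ER-associated degradation passed the test. Derl3, a derlin of the retrotranslocation channel, read 11.81, 11.52 and 11.66 in sham, 10.38, 10.99 and 11.52 in BPH, and 11.81, 11.71 and 11.66 in BPH+ghrelin. The BPH+ghrelin arrays did not overlap with the BPH arrays and differed from them by 0.76 ± 0.26 (adjusted p = 0.158), and BPH differed from sham by −0.70 ± 0.26 (adjusted p = 0.142). A dimmer second Derl3 probe differed by 0.25 in both of these comparisons, so that the probes disagree in sign for BPH against sham. Sel1l, the adaptor of the ubiquitin ligase HRD1, read 7.95, 7.30 and 7.64 in sham, 7.62, 8.65 and 9.48 in BPH, and 8.95, 8.63 and 8.14 in BPH+ghrelin. The BPH+ghrelin arrays were above the sham arrays (0.95 ± 0.44, adjusted p = 0.237), and a second Sel1l probe gave differences of 0.96 for BPH and 0.99 for BPH+ghrelin against sham. The HRD1 gene Syvn1 read 12.08, 10.83 and 11.65 in sham, 11.62, 11.84 and 12.22 in BPH, and 11.92, 11.70 and 11.67 in BPH+ghrelin, without separation of the groups.

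Herpud1, which recruits HRD1 complexes and has the ERSE-II printed above, read 13.11, 12.61 and 13.04 in sham, 12.57, 13.08 and 13.55 in BPH, and 13.68, 13.40 and 13.07 in BPH+ghrelin. Its arrays overlapped in all comparisons, with a difference between BPH+ghrelin and sham of 0.46 ± 0.27 (adjusted p = 0.351). Edem2, which trims mannose on misfolded glycoproteins, ranged from 8.22 on sham replicate 2 to 10.25 on BPH replicate 3. Derl1 ranged from 11.99 to 12.57 and Selenos from 12.45 to 12.80 over the 9 arrays, and both had overlapping groups. Means were above sham for 6 of 7 degradation genes in BPH (median 0.16, and −0.03 with 75th percentile scaling) and for 6 of 7 in BPH+ghrelin (median 0.24).

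All 5 measured genes of translocation into the ER had higher means in both BPH groups than in sham, with a median difference of 0.30 in BPH (0.05 with 75th percentile scaling) and 0.40 in BPH+ghrelin (0.51 with 75th percentile scaling), and 0 of 5 passed the test. The translocon subunit Sec61b read 14.95, 14.18 and 14.65 in sham, 14.65, 14.80 and 15.22 in BPH, and 15.33, 15.19 and 14.99 in BPH+ghrelin. Its BPH+ghrelin arrays were above its sham arrays (0.57 ± 0.23, adjusted p = 0.176). The channel subunit Sec61a1 read 8.36, 7.29 and 8.07 in sham, 7.50, 8.45 and 9.13 in BPH, and 8.69, 8.25 and 7.78 in BPH+ghrelin, with wide overlap. Ssr2, of the translocon-associated complex, read 11.77, 11.15 and 11.63 in sham, 11.55, 12.096 and 12.63 in BPH, and 12.39, 12.16 and 11.83 in BPH+ghrelin. BPH+ghrelin did not overlap with sham (0.61 ± 0.29, adjusted p = 0.25), whereas Ssr3 and the brighter Ssr1 probe of the same complex differed from sham by 0.31 and 0.40 with overlap. A second Ssr1 probe read 10.59, 10.22 and 10.42 in sham, 10.29, 11.28 and 11.96 in BPH, and 11.74, 11.32 and 11.01 in BPH+ghrelin, which is 0.95 above sham without overlap.

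Of the ATF4 and CHOP targets, 0 of 4 passed the test and the arrays of all 4 overlapped in each comparison. Trib3, a pseudokinase that restrains ATF4, read 6.88, 6.66 and 6.70 in sham, 6.62, 6.84 and 6.88 in BPH, and 7.72, 7.30 and 6.75 in BPH+ghrelin. BPH+ghrelin replicates 1 and 2 were the highest arrays, and the difference was 0.48 ± 0.23 (adjusted p = 0.281) against BPH and 0.51 ± 0.23 (adjusted p = 0.228) against sham. Asns (asparagine synthetase) read 11.66, 10.71 and 11.34 in sham, 11.46, 11.71 and 12.15 in BPH, and 11.50, 11.45 and 11.40 in BPH+ghrelin, with its highest value on BPH replicate 3 and a difference between BPH and sham of 0.54 ± 0.26 (adjusted p = 0.227). Ppp1r15a (GADD34), which reverses the phosphorylation by PERK, ranged from 9.86 on sham replicate 2 to 11.02 on sham replicate 1. Chac1, a glutathione-degrading enzyme, ranged from 6.75 to 7.19 over the 9 arrays.

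The 3 BPH arrays differed from each other in these genes. This was noticed after the values had been seen and is a description without a test. BPH replicate 1 was the lowest, replicate 2 between and replicate 3 the highest BPH array for 31 of 39 ER genes well above background on all arrays (79.5%), compared with 36.5% of 16137 genes, and the reverse arrangement was found for 4 of 39 (all genes, 38.4%). The signal on BPH replicate 3 was at least 2-fold that on BPH replicate 1 for 16 of 39 genes (41.0%), compared with 3.22% of all genes, and at least 2-fold lower for 0 of 39 (all genes, 3.06%). The BPH arrays spanned more than those of the other groups for 20 of 39 ER genes (all genes, 26.1%). The median difference between replicates 3 and 1 was 0.82 over the ER genes and −0.01 over all genes. Other lists were arranged likewise. The median deviation from the mean of the 9 arrays on BPH replicates 1, 2 and 3 was −0.35, 0.07 and 0.39 for the ER genes, −0.36, 0.06 and 0.38 for oligosaccharyltransferase and signal peptidase, −0.13, 0.11 and 0.43 for the COPII coat and early secretory pathway, and −0.04, 0.33 and 0.64 for cytosolic and mitochondrial chaperones.

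By role, this difference had a median of 1.22 in the chaperones (higher in 8 of 8, at least 2-fold in 7), 1.05 in isomerases and oxidases (6 of 7, 2-fold in 4), 0.98 in degradation (7 of 7, 2-fold in 3) and 0.84 in translocation (5 of 5, 2-fold in 2). It was 0.06 in the transcription factors, 0.04 in the 2 sensors Eif2ak3 and Atf6, and 0.21 in the ATF4 and CHOP targets, with 0 genes at 2-fold in these 3 roles. Creld2 (2.16, 4.46-fold) and Fkbp11 (2.06, 4.16-fold) differed most, followed by Sel1l (1.86), Sdf2l1 (1.71) and Ero1b (1.68). Agr2 (−0.77), Creb3l4 (−0.37), Xbp1 (−0.32) and Eif2ak3 (−0.30) were lower on replicate 3. Hspa5 (1.04) and Edem2 (1.02) lay just inside 2-fold, and Herpud1 (0.98) and Hsp90b1 (0.93) just outside. The count of 16 was 15 with 75th percentile scaling, 14 with normexp and 16 in the deposited matrix. It was 7 without scaling between arrays, where the median of all genes was −0.37 and the ER median 0.44, which is 0.82 above it.

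The 10 measured genes with an ERSE or ERSE-II had a median difference between BPH replicates 3 and 1 of 1.14 (higher in 9 of 10), compared with 0.59 in the 24 measured genes whose window held neither (higher in 20 of 24). The exception among the 10 was Xbp1. Of the 10, 6 are chaperones. Among chaperones, the range was 0.93 to 2.16 with an element, and Sdf2l1 (1.71) and Dnajb9 (1.09) had neither. The part of the element and of the role in these values was not tested. Fkbp11, with the second largest difference of the set, had neither element in its window.

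**Figure D5:**
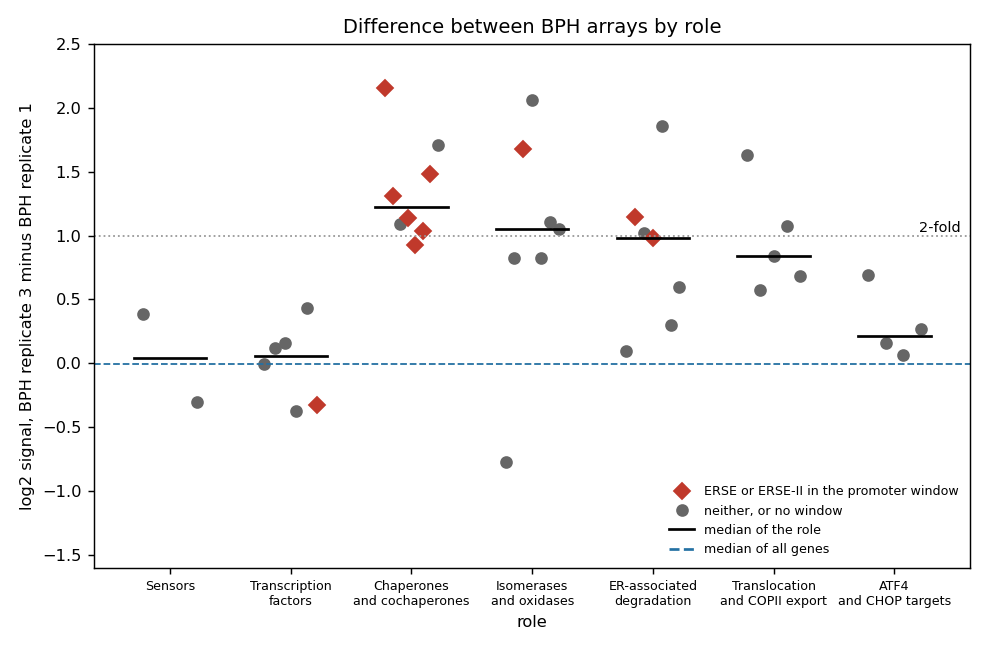
Log2 signal on BPH replicate 3 minus that on BPH replicate 1 for the 39 genes well above background on all arrays, by role; red diamonds mark genes with an ERSE or ERSE-II, black bars role medians, the dashed line the median of all genes (−0.01) and the dotted line 2-fold. Chaperones lie between 0.93 and 2.16, and transcription factors between −0.37 and 0.44.

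Other marker lists also differed among the BPH arrays. The summed signal of 7 smooth muscle markers was 17440, 25413 and 33741 in BPH replicates 1, 2 and 3, compared with 17091 to 30097 in sham and 16710 to 18378 in BPH+ghrelin, and that of the seminal vesicle markers was 28308, 15480 and 750. Secretory epithelium markers gave 249669, 235213 and 216848, and the 9 matched plasma cell and B cell markers 4353, 5086 and 6128 (sham, 3118 to 3369; BPH+ghrelin, 4050 to 7155). Most of the latter sum is from Sdc1 (12.01, 12.25 and 12.52 in BPH), which epithelium also expresses. Of 6 tested genes of this list, 4 had lower means in BPH than in sham (median −0.47) and 5 lower means in BPH+ghrelin than in sham (median −0.57, 1 passed), and Cd79b and Irf4 were well above background on 0 of 9 arrays. The fibroblast sum was 19415, 24137 and 29626 in BPH replicates 1, 2 and 3, the basal epithelium sum 5312, 6266 and 7103, and the macrophage sum 51491, 47600 and 42529. The part of these cell types in the arrangement of the ER genes was not tested. Pancreatic acinar markers, of which 4 of 8 were well above background on 0 arrays, summed to 189 to 458.

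Other genes of the secretory pathway were taken from lists of known members, and their counts stand beside the shares of all genes with an unadjusted p under 0.05 (26.5% in BPH against sham, 21.1% in BPH+ghrelin against BPH and 23.7% in BPH+ghrelin against sham) and with a higher mean (53.7%, 51.7% and 54.4%). Of 18 other ER folding enzymes and lectins, 14 had higher means in BPH than in sham (9 with 75th percentile scaling), 16 in BPH+ghrelin than in sham and 13 in BPH+ghrelin than in BPH, and 0 passed the test in limma in any comparison (3, 2 and 5 with an unadjusted p under 0.05). Qsox1, a sulfhydryl oxidase, differed most, by 1.26 between BPH+ghrelin and sham (adjusted p = 0.0506). All 13 subunits of oligosaccharyltransferase and signal peptidase, which add glycans and remove signal peptides, had higher means in BPH than in sham (7 with 75th percentile scaling), and 12 did in BPH+ghrelin, with medians of 0.19 and 0.42 and 0 calls (0 and 1 with an unadjusted p under 0.05). Of 11 genes of the signal recognition particle and translocon, 9 were higher in BPH+ghrelin than in sham (median 0.30, 0 calls, 4 with an unadjusted p under 0.05) and 6 in BPH than in sham (median 0.16, 0 calls). Of 10 other degradation genes, 10 were higher in BPH+ghrelin than in sham (9 with 75th percentile scaling; median 0.37, 0 calls, 4 with an unadjusted p under 0.05). In BPH against sham, 9 of these 10 were higher (7 with 75th percentile scaling; median 0.31, 0 calls, 3 with an unadjusted p under 0.05).

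In the list of the COPII coat, which carries folded cargo out of the ER, and the early secretory pathway, 14 of 16 genes were higher in BPH+ghrelin than in sham (median 0.27). In BPH against sham, 15 of 16 were higher (6 with 75th percentile scaling; median 0.28), and in BPH+ghrelin against BPH 8 of 16 were. In BPH+ghrelin against sham, 1 of 16 passed (all genes, 6.29%), Sec24a, which rose by 0.83 ± 0.20 (adjusted p = 0.0467). The largest difference in this list in that comparison was that of Sec16b, which differed by −1.36 ± 0.50 and did not pass (adjusted p = 0.143). In the list of other ATF4-dependent genes, 11 of 17 were higher in BPH+ghrelin than in sham. An unadjusted p under 0.05 was found for 6 of 17 in BPH against sham, 6 of 17 in BPH+ghrelin against BPH and 4 of 17 in BPH+ghrelin against sham, and 1, 0 and 2 passed (all genes, 4.34%, 1.48% and 6.29%). The cystathionine lyase Cth rose by 1.21 ± 0.25 (adjusted p = 0.0327) and the lipoprotein receptor Vldlr fell by 1.51 on the log2 scale (adjusted p = 0.0115), while Slc3a2, a subunit of amino acid transporters, rose by 0.93 ± 0.19 in BPH against sham (adjusted p = 0.0381). The cystine transporter Slc7a11 differed by 1.68 ± 0.37 between BPH+ghrelin and BPH (adjusted p = 0.0667). For comparison outside the ER, 11 of 13 cytosolic and mitochondrial chaperones were higher in BPH than in sham (9 with 75th percentile scaling; median 0.42) and Hsp90aa1 rose by 0.86 ± 0.19 (adjusted p = 0.0454), whereas 2 of 13 were higher in BPH+ghrelin than in BPH (5 with 75th percentile scaling; median −0.26) and 12 of 13 in BPH+ghrelin than in sham (median 0.19). Of these 13, 6, 4 and 0 had an unadjusted p under 0.05 in BPH against sham, BPH+ghrelin against BPH and BPH+ghrelin against sham, and 1, 0 and 0 passed.

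The mean of the 39 ER genes was 11.36, 10.96 and 11.20 on the sham arrays, 10.88, 11.30 and 11.64 on the BPH arrays, and 11.54, 11.41 and 11.24 on the BPH+ghrelin arrays. The genes outside the set that were most like this mean over the 9 arrays were Spcs2 (r = 0.99), Slc25a22 (r = 0.99), Spcs1 (r = 0.98), Surf4 (r = 0.98) and Msrb1 (r = 0.97). Spcs1 and Spcs2 encode subunits of signal peptidase. Within the set, the correlation with the mean of the other members was highest for Herpud1 (r = 0.97) and Hyou1 (r = 0.96) and lowest for Agr2 (r = −0.45), with 0.06 for Xbp1 and 0.04 for Eif2ak3. These coefficients describe 9 arrays that share the group differences.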

How the data were processed

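Gene expression had been measured with Agilent one-colour rat arrays (9 arrays of prostate RNA), and groups were taken from the sample labels. The intensities deposited by the authors are scanner signals after background subtraction (Feature Extraction 11.0.1.1 per the file headers). The matrix deposited by the authors holds quantile normalized log2 values and was used as an alternative. Outlier spots (313 to 741 of 44254 per array) were removed, spots of a probe averaged and log2 signals of 30356 probes quantile normalized; of these steps, the methods of the study name quantile normalization. No spot was saturated, and the number of arrays limits the precision. Accessions matched 17998 probes (59.3%) to RefSeq genes of GRCr8, used for names and windows only because the array annotation is of another build.

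Probes entered a comparison if 3 or more of its 6 arrays showed them well above background, and the brightest such probe stood for its gene. limma 3.58.1 (R 4.3.3) was fitted to the 3 groups, with Benjamini-Hochberg adjustment over all genes tested, after a check on simulated data. The 2-fold criterion is that of the study, which applied no test to the arrays. Statistics are given for the sensors, Hspa5, Xbp1, Atf4 and Ddit3, for genes that passed, and in each direction for the 4 separated genes with the largest difference; others were added after their values were seen. The members, lists and alternatives were chosen with earlier results of these data known. Alternatives were 75th percentile scaling, normexp (offset 50, on median signals), other filters, the mean of probes, 6 arrays only, blocks for replicate number and scan, eBayes with trend, the deposited matrix and leaving out each array.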

Additional observations from a re-analysis of the deposited data

How the results depend on the processing

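The limits of these results are set by 3 arrays per group, of which 1 lies between the other two, and by scans that are partly confounded with group. In BPH against sham, the 2 genes that passed became 1 (Agr2) with the 6 arrays compared alone, 1 (Agr2) with replicate number as a block, where Creb3l1 had an adjusted p of 0.0642, and 0 with scan as a block, and 0 to 4 when 1 array was left out. The count of 1 gene at 2-fold became 3 with scan as a block and 1 to 5 without 1 array. The median of 0.15 became −0.034 with 75th percentile scaling and 0.01 to 0.40 without 1 array. In BPH+ghrelin against BPH, the 0 genes that passed became 3 with the 6 arrays alone (where calls over all genes rose from 293 to 2106) and remained 0 to 0 without 1 array, and the 0 genes at 2-fold became 1 with 75th percentile scaling and 0 to 4 without 1 array. The median of 0.11 ranged from −0.039 (without BPH replicate 1) to 0.30 without 1 array and was −0.0047 without BPH+ghrelin replicate 1. In BPH+ghrelin against sham, the 2 genes that passed became 4 with the 6 arrays alone, 1 (Agr2) with the replicate block, where Creb3l1 had an adjusted p of 0.0566, 0 with scan as a block, 0 within the second scan, and 0 to 4 without 1 array, the count of 2 at 2-fold became 2 to 4 and the median of 0.31 became 0.17 to 0.43 without 1 array. The count of 16 genes with 2-fold higher signal on BPH replicate 3 than on BPH replicate 1 was 7 without scaling between arrays. The causes were not tested.

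Among single genes, Hspa5 in BPH against sham was −0.47 with 75th percentile scaling and −0.12 to 0.40 without 1 array, and Atf6 was 0.0060 with normexp and −0.14 to 0.063 without 1 array. Ern1 in BPH+ghrelin against BPH was 0.41 with scan as a block and within the first scan. Hspa5 in this comparison was −0.00070 without BPH replicate 1 and up to 0.52 without another array. Atf6 in BPH+ghrelin against sham was −0.0058 with the mean of its probes, and without sham replicate 1 Xbp1 was 0.14, Ddit3 −0.052 and Eif2ak3 0.15 (without 1 array, −0.47 to 0.14, −0.052 to 0.36 and −0.37 to 0.15). The remaining values for single genes kept their direction (500 on the same side of the threshold, 11 newly past it and 23 no longer past it), and 14 turned. Ern1 had no value with the filter on all 6 arrays. BPH and sham share no scan, so no value within a scan was possible.

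Calls over all genes differed by more than 1.5-fold in these alternatives. In BPH against sham, 849 became 533 without a filter, 181 with the 6 arrays alone, 242 with the replicate block and 2 with scan as a block. In BPH+ghrelin against BPH, 293 became 502 with 75th percentile scaling, 188 without a filter, 20 with the replicate block, 2 with scan as a block and 1 within the first scan. In BPH+ghrelin against sham, 1207 became 462 with the replicate block, 85 with scan as a block and 4 within the second scan. Without 1 array, calls were 119 to 3082, 3 to 396 and 225 to 1925 in the 3 comparisons. Deviations from the group means correlated at −0.18 to 0.38 between samples with the same replicate number and at −0.39 to 0.41 between samples with different numbers. These ranges do not decide whether samples with the same number were paired.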
